A study of Mus musculus with 48 samples.

Results

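The cytosolic ribosome is built from ribosomal RNA and a set of ribosomal proteins, most of them encoded by a single gene named Rpl (large subunit), Rps (small subunit) or Rplp (the stalk of the large subunit). The genes described here were chosen by name and level: of 48795 genes in the deposited table, 89 had a symbol of the form Rpl, Rps or Rplp followed by a number, or Rpsa, with symbols ending in a pseudogene suffix left out, and 68 of these averaged at least 5 CPM, the count scaled to library size, over the 48 mice. They comprised 38 large-subunit genes, 27 small-subunit genes and 3 stalk genes. The annotation lists 64 of them as protein coding and 4 as processed pseudogenes in spite of their symbols (Rps4l, Rpl6l, Rps3a2 and Rps3a3). The threshold lay in a dense stretch of levels: Rpl36a (5.31 CPM), Rpl22l1 (5.46), Rps10 (5.54) and Rps4l (5.65) were just inside it, and Rpl11 (4.78), Rpl10 (4.77) and Rpl37 (4.76) just outside. A further 21 genes with such names fell below it.

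The tissue was cerebral cortex, taken at 6 months from mice listed as C57BL/6. There were 6 genotype groups: 7 wild-type mice (WT), 9 Msh3+/- mice and 8 Msh3-/- mice without the Huntington's disease allele, and with it 8 Q140 mice, 8 Q140 x Msh3+/- mice and 8 Q140 x Msh3-/- mice. The allele named Q140, an expanded CAG repeat knocked into the huntingtin gene Htt, is labelled heterozygous in all 3 groups that carry it. Msh3 encodes a mismatch repair protein that acts on small DNA loops, and the crosses ask how its genotype bears on the Q140 cortex. The labels do not say how the Msh3 allele was made. Both sexes were sampled: there were 3 female and 4 male WT mice, 5 female and 4 male Msh3+/- mice, and 4 of each sex in the remaining groups. Because this is whole cortex, fewer cells of a type and less RNA per cell cannot be told apart.

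Library totals ran from 35946572 to 64479357 counts. Msh3 itself separated the Msh3 genotypes without overlap, but upward: it lay at 21.8 to 25.9 CPM in the WT and Q140 libraries, at 61.2 to 77.4 CPM in the libraries labelled Msh3+/-, with or without Q140, and at 99.1 to 125 CPM in those labelled Msh3-/-. A count over the whole gene does not show which part of it was transcribed, so this check orders the libraries as labelled without showing loss of the product. Htt averaged 237 ± 8.13 CPM in WT and 238 ± 7.16 CPM in Q140 (SD, n = 7 and 8). Neuronal markers were the most abundant of the marker lists in every group (12 genes summing to 14794 to 16501 CPM). The 7 choroid plexus markers summed to 203 to 253 CPM in the 4 other groups and reached 726 CPM in a WT mouse and 1981 CPM in an Msh3-/- mouse.

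Ribosomal protein mRNAs are known for being made and translated as a group. Their transcripts start with a C followed by a run of pyrimidines, the terminal oligopyrimidine (TOP) motif, through which the mTOR kinase and the RNA-binding protein LARP1 set their translation. In neurons, protein synthesis also takes place in axons and dendrites, far from the nucleolus where ribosomes are assembled.

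The start-site motif is shown for the 4 genes with the longest pyrimidine run among those whose annotated start is a C. Promoter sequences from RefSeq (GRCm38.p6) were found for 48 of the 68 genes, as 58 entries of 300 bases. Each line below gives 20 bases before the annotated start and 20 from it, with the tract that begins at the start in capitals. Rpl15 lies at chr14:18270967-18271006 on the minus strand, Rpl35 at chr2:39005112-39005151 (minus), Rps10 at chr17:27635225-27635264 (minus) and Rps18 at chr17:33955646-33955685 (minus).
Rpl15: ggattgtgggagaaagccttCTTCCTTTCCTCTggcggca
Rpl35: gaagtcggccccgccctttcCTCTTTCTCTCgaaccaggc
Rps10: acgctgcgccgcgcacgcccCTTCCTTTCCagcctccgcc
Rps18: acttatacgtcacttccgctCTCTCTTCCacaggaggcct

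A C followed by at least 4 pyrimidines stood exactly at the annotated start in 10 of the 58 entries (17.2%), and in 2.51% of the 32851 promoters of the table. Annotated starts are often a few bases off, and a pyrimidine run of at least 8 within 25 bases of the start on either side was present in 26 entries (44.8%), beside 19.7% of all promoters. The letters CCGGAAG, the core that ETS-family factors bind, occurred on either strand in 21 entries (36.2%) against 8.86% of all promoters. ATGGCGG, which holds the core of the YY1 site, occurred on either strand in 11 (19.0%) against 4.05%. These are matches of letters in a 300-base window and do not show binding.

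Per kilobase of the length behind the deposited FPKM, the 68 genes spanned 130-fold, although the proteins themselves enter the ribosome in near-equal numbers. For 48 of the 68 that length equals the union of all annotated exons, which can be longer than the mRNA (3598 bases for Rpl12). Counts can also be shared with copies, so the span does not measure mRNA numbers alone. In the deposited FPKM values, Rplp1, an acidic protein of the stalk that recruits elongation factors, was highest at 255 ± 29.9 FPKM (SD, n = 48; 173 to 315). Rpl4, whose extension lines the exit tunnel, followed at 222 ± 9.56 FPKM, and Rps15, a protein of the small-subunit head, at 181 ± 13.3. The lowest were Rpl12 (1.97 ± 0.20 FPKM), a protein of the stalk base, Rpl9 (2.24 ± 0.19) and Rpl22l1 (2.75 ± 0.28). The median over the 68 genes was 11.6 FPKM, and Rpl3, a large-subunit protein that reaches towards the peptidyl transferase centre, was close to it at 11.6 ± 0.87.

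Many of these genes cannot be fully told apart from their copies. Ribosomal protein genes have many processed pseudogenes, intronless copies elsewhere in the genome, and 568 pseudogene rows of the table shared at least one 75-base stretch with a gene of these names. Of those rows, 106 averaged 1 CPM or more, and the 568 together held 1766 CPM beside 2503 CPM in the 68 genes and 48.9 in the 21 genes below the threshold. In 37 cases the copy held at least as many counts as its parent: Rpl19-ps11 averaged 76.5 CPM and Rpl19 7.99, and Rpl3-ps1 averaged 68.04 CPM and Rpl3 36.2. The copies summed to more than the gene for 23 of the 68 members and for 12 of the 21 genes below the threshold. Rps6 (4.38 CPM), the substrate of S6 kinase and a common readout of mTOR, missed the threshold while its copy Rps6-ps4 held 56.1 CPM, and Rpl11 did so while Gm10288 held 53.1 CPM. The median share of 75-base windows found nowhere else in annotated transcripts was 70.9% for members and 56.4% below the threshold. The 13 members with at least 90% unique windows had a median of 17.0 FPKM (5.02 to 222), and the 18 members with under 50% a median of 10.6 FPKM (2.79 to 49.7). How the submitters' counting treated reads that fit a gene and its copy is not given in the sources used here, so the level of a member with abundant copies is uncertain.

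Rpl3 shows how close such copies are. It lies at chr15:80077791-80091868 on the minus strand (GRCm38), and its intronless copy Rpl3-ps1 at chrX:13202571-13203780. Of 1209 coding bases aligned, 1207 were identical, and the differences were C57A and T786C, with positions counted from 1 at the A of the start codon of Rpl3 and the base of Rpl3 first. The lines below, from the GENCODE M21 transcripts, give 20 bases on each side of each difference, with the differing base in capitals.
Rpl3, bases 37 to 77: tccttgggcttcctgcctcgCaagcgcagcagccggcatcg
Rpl3-ps1, bases 37 to 77: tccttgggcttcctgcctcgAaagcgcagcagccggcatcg
Rpl3, bases 766 to 806: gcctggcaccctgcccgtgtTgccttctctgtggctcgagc
Rpl3-ps1, bases 766 to 806: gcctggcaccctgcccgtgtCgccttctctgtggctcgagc

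The second copy, Rpl3-ps2, matched 1201 of 1211 bases. Only 36.0% of the 75-base windows of Rpl3 were unique to it.

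Rpl3 was highest in Q140 and lower in both crosses, without passing the test across all genes. It ranged from 33.5 to 39.1 CPM in WT (median 35.5) and from 36.5 to 43.5 CPM in Q140 (median 40.2). Among Q140 x Msh3+/- mice it ranged from 31.3 to 37.7 CPM (median 33.3), and in Q140 x Msh3-/- mice from 32.4 to 40.7 CPM (median 35.2). Of the 8 Q140 mice, 6 lay above every WT mouse and above every Q140 x Msh3+/- mouse, and 3 lay above every Q140 x Msh3-/- mouse, so the groups overlapped in each case. Without Q140, the Msh3+/- mice (32.0 to 37.7 CPM, median 35.9) and the Msh3-/- mice (32.5 to 38.4 CPM, median 36.0) overlapped the WT range.

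**Figure D1:**
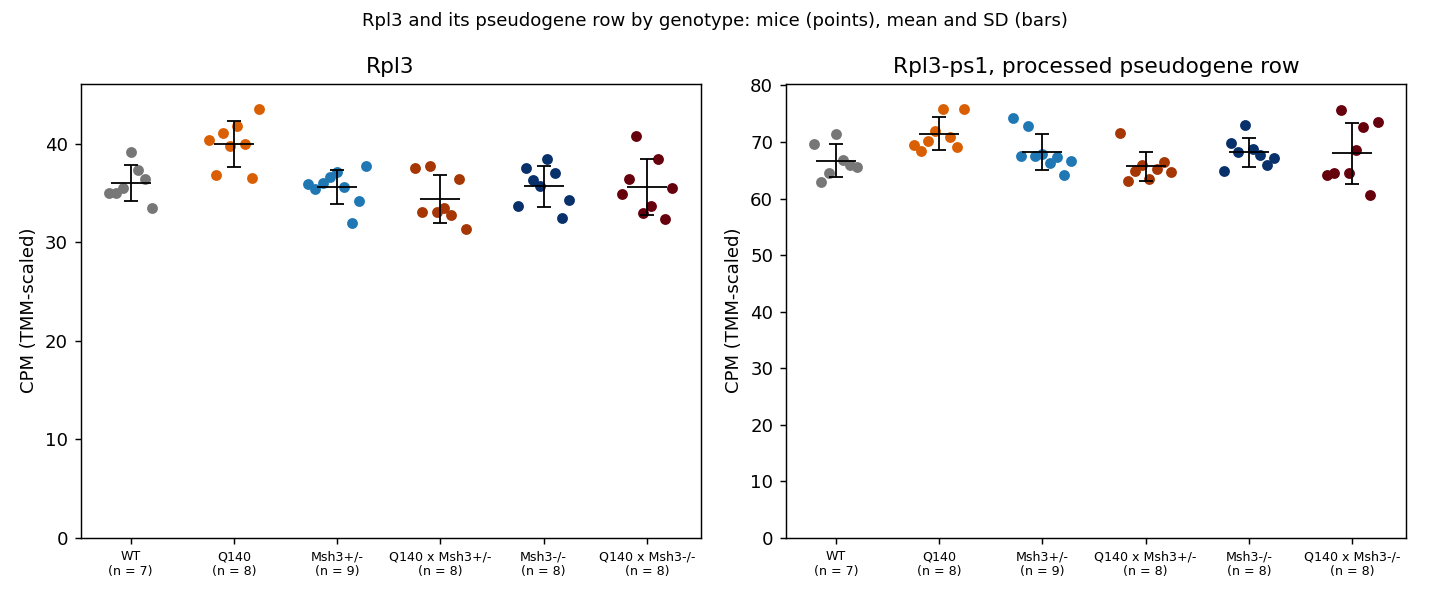
Level of Rpl3 (left) and of its processed pseudogene row Rpl3-ps1 (right) in CPM with library sizes scaled by TMM, by genotype; points are mice, bars the group mean and SD, and both axes start at 0. The Q140 group has the highest mean in both panels, 40.0 CPM for Rpl3 and 71.5 CPM for Rpl3-ps1, and overlaps every other group.

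In the edgeR quasi-likelihood fit over 20010 genes, which shares 1 estimate of the spread among all 48 mice and adjusts for sex, Rpl3 had a log2 fold change of -0.22 (SE 0.04) in Q140 x Msh3+/- against Q140, with an adjusted p of 0.0598, just short of the 0.05 threshold. It was the smallest p of the 68 genes in that comparison. Rpl3 was singled out with its value in this comparison already known from earlier work on these data, so these values are a description. Its adjusted p passed under 6 of 17 other settings, DESeq2 among them (0.0118), and in 9 of the 48 fits that left out 1 mouse. The adjusted p by edgeR was 0.450 where the fit held only the groups compared. All settings reuse the same mice. The log2 fold change was 0.15 (SE 0.05, adjusted p = 0.822) in Q140 against WT and -0.17 (SE 0.04, adjusted p = 0.290) in Q140 x Msh3-/- against Q140. The Q140 group enters all 3 of these comparisons, so they are not independent. The difference between the Q140 effect in Msh3+/- mice and that in mice with wild-type Msh3 was -0.20 (SE 0.06, adjusted p = 0.709), and for Msh3-/- it was -0.15 (SE 0.06, adjusted p = 0.922).

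The copies of Rpl3 had values of the same sign. Rpl3-ps1 averaged 71.5 ± 2.87 CPM in Q140 and 65.7 ± 2.62 CPM in Q140 x Msh3+/- mice (SD, n = 8 each), a log2 fold change of -0.12 (SE 0.04, adjusted p = 0.822 by edgeR). For Rpl3-ps2 the log2 fold change was -0.26 (SE 0.07, adjusted p = 0.736 by edgeR). With the copies added to Rpl3, the log2 fold change was -0.17 (SE 0.04) and the adjusted p 0.142.

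Across the whole group, the same ordering was seen on a smaller scale: a majority of the ribosomal protein genes sat slightly higher in Q140 than in WT and slightly lower in each cross than in Q140, none of them past the adjusted threshold. In Q140 against WT, 0 of the 68 genes were called by edgeR, where 2 of all genes (0.01%) were, and DESeq2 also called 0. At an unadjusted p under 0.05, 9 members were higher and 0 lower, beside 2.51% of all genes higher. The log2 fold change was above 0 for 53 members and below for 15, with a median of 0.05 against 0.00 over all genes. Among those 9 were Rpl3, Rps28, a small protein of the head (0.15, SE 0.06) and Rps18, also of the head (0.09, SE 0.04).

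In Q140 x Msh3+/- against Q140, edgeR called 0 members, beside 4 of all genes (0.02%), and DESeq2 called 1, Rpl3. For DESeq2 the number of all genes called is not reported here, in this or the other comparisons. The log2 fold change was below 0 for 63 of the 68, with a median of -0.09 beside 0.00 over all genes. At an unadjusted p under 0.05, 26 members were lower and 0 higher, beside 2.82% of all genes lower. In Q140 x Msh3-/- against Q140, edgeR called 0 members, beside 9 of all genes (0.045%), and DESeq2 also called 0. There 61 were below 0, with a median of -0.09 beside -0.01 over all genes, and 30 were lower at an unadjusted p under 0.05 and 0 higher, beside 4.55% of all genes lower. Since members vary together from mouse to mouse, these counts are not 68 separate observations.

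After Rpl3, the smallest p in Q140 x Msh3+/- against Q140 belonged to Rpl7, a large-subunit protein. It measured 66.1 to 78.8 CPM in Q140 (median 73.6) and 63.7 to 71.3 CPM in Q140 x Msh3+/- mice (median 66.1), and the groups overlapped. Its log2 fold change was -0.14 (SE 0.04, adjusted p = 0.670 by edgeR). Rps18 had the smallest p in Q140 x Msh3-/- against Q140. It measured 17.7 to 19.5 CPM in Q140 (median 18.9) and 15.003 to 18.492 CPM in the cross (median 16.7), with 6 of the 8 cross mice below every Q140 mouse. The log2 fold change was -0.16 (SE 0.04, adjusted p = 0.149 by edgeR), and it was called when Q140 x Msh3-/- male 2 was left out (adjusted p = 0.0415). Rps7, a small-subunit protein that binds Mdm2 when free of the ribosome, measured 9.40 to 11.7 CPM in Q140 and 8.34 to 10.5 CPM in the same cross. The groups overlapped, and the log2 fold change was -0.22 (SE 0.06, adjusted p = 0.264 by edgeR).

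**Figure D2:**
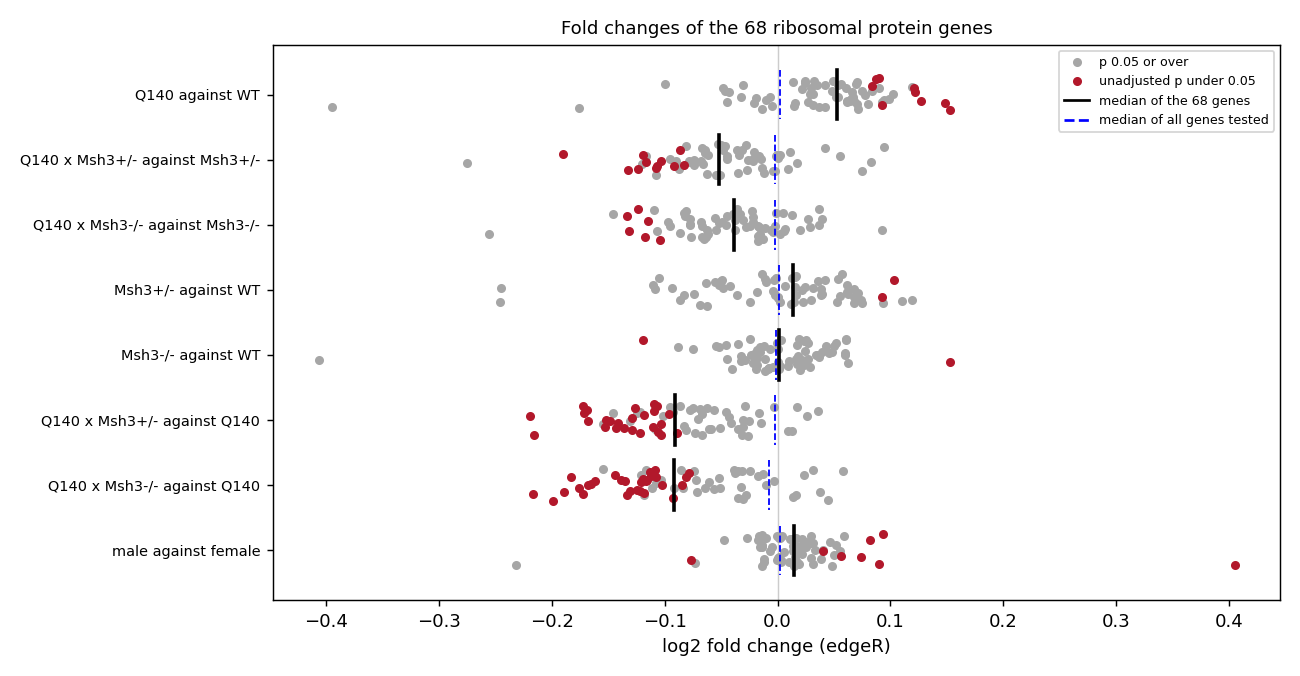
Log2 fold change (x axis, edgeR) of each of the 68 ribosomal protein genes (points) in 8 comparisons (rows); red points have an unadjusted p under 0.05, the black bar is the median of the 68 and the dashed blue bar the median of all genes tested. The medians lie at 0.05 in Q140 against WT and at -0.09 in each cross against Q140, and near 0 in the comparisons of Msh3 genotypes without Q140.

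In the comparisons that do not use the Q140 group, members also leaned to one side where the Q140 allele differed. In Q140 x Msh3+/- against Msh3+/- mice 58 of the 68 genes had log2 fold changes below 0 (median -0.05), and in Q140 x Msh3-/- against Msh3-/- mice 56 did (median -0.04), so that within each altered Msh3 genotype the Q140 mice were on the low side, opposite in sign to Q140 against WT. edgeR called 0 members in both, beside 0.015% and 0% of all genes. At an unadjusted p under 0.05, 11 members were lower and 0 higher in the first, beside 2.84% of all genes lower, and 6 were lower and 0 higher in the second, beside 3.57%. Rpl7 (-0.12, SE 0.03, adjusted p = 0.780) and Rps28 (-0.19, SE 0.06, adjusted p = 0.780) had the smallest p in the first. Rps18 (-0.11, SE 0.04, adjusted p = 0.671) and Rpl41, a very short basic peptide (-0.13, SE 0.05, adjusted p = 0.685), had the smallest in the second.

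Between Msh3 genotypes without Q140, the members lay on both sides of 0. In Msh3+/- against WT, 40 members were above 0 and 28 below (median 0.01), and in Msh3-/- against WT 36 and 32 (median 0.00). edgeR called 0 in both, beside 0.025% and 0.035% of all genes. At an unadjusted p under 0.05, 2 members were higher in Msh3+/- mice, among them Rps4x of the small subunit (0.09, SE 0.04, adjusted p = 0.471). In Msh3-/- mice Rpl35, near the tunnel exit, was higher (0.15, SE 0.07) and Rpl36 lower (-0.12, SE 0.06), with adjusted p of 0.848 and 0.864.

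The difference between Q140 effects was tested directly. The Q140 effect in Msh3+/- mice minus that in mice with wild-type Msh3 was below 0 for 55 of the 68 genes (median -0.10), and for Msh3-/- mice it was below 0 for 62 (median -0.09). edgeR called 0 members in either, as it called 0% of all genes. At an unadjusted p under 0.05, 22 members were lower in the first (2.93% of all genes) and 15 in the second (2.72%), and 0 were higher. Rps28 had the largest size in the first (-0.34, SE 0.09, adjusted p = 0.629), and Rps7 (-0.23) and Rps18 (-0.21) had the smallest p in the second (adjusted p = 0.922).

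No member set a group apart, which was also true of nearly all genes tested. In each of the 7 comparisons between 2 genotypes, 0 of the 68 genes separated all mice of one group from all mice of the other, beside 1 to 12 of the 20010 genes tested.

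A mean over the 68 genes shows the size of the shift against the spread between mice. As the mean deviation from each gene's average on the log2 scale, it was 0.05 ± 0.07 in Q140 (SD, n = 8) and 0.02 ± 0.04 in WT (n = 7). It was -0.04 ± 0.04 in Q140 x Msh3+/- and -0.04 ± 0.09 in Q140 x Msh3-/- mice (n = 8 each). The Msh3+/- and Msh3-/- groups were at 0.01 ± 0.07 (n = 9) and 0.00 ± 0.07 (n = 8; lowest -0.12, highest 0.07). The members made up 0.261 ± 0.0111% of all counts in Q140 and 0.244 ± 0.0073% and 0.244 ± 0.0143% in the crosses.

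The well address of the sample moved with that mean. The labels give one for each mouse, in 6 columns of 8 mice, and do not say at which step the plate was used. All 8 mice of column 1 were above 0 (0.05 to 0.12, mean 0.08), whereas columns 2 to 6 averaged between -0.05 and 0.01. Column 1 held 2 Q140 mice, 3 Msh3+/- mice, 1 mouse of each other altered group and no WT mouse, and of the 8 Q140 x Msh3-/- mice 3 were in column 3 and 4 in column 4, the columns with the lowest means. With plate column as a term in the fit, the members at an unadjusted p under 0.05 fell from 30 to 11 in Q140 x Msh3-/- against Q140 and from 9 to 1 in Q140 against WT, but only from 26 to 23 in Q140 x Msh3+/- against Q140. Outside column 1, the means were 0.03 ± 0.07 over 6 Q140 mice and 0.02 ± 0.04 over 7 WT mice (SD). They were -0.05 ± 0.03 and -0.06 ± 0.06 over 7 mice of each cross, Q140 x Msh3+/- first. For Msh3+/- and Msh3-/- mice they were -0.02 ± 0.07 (n = 6) and -0.01 ± 0.08 (n = 7).

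**Figure D3:**
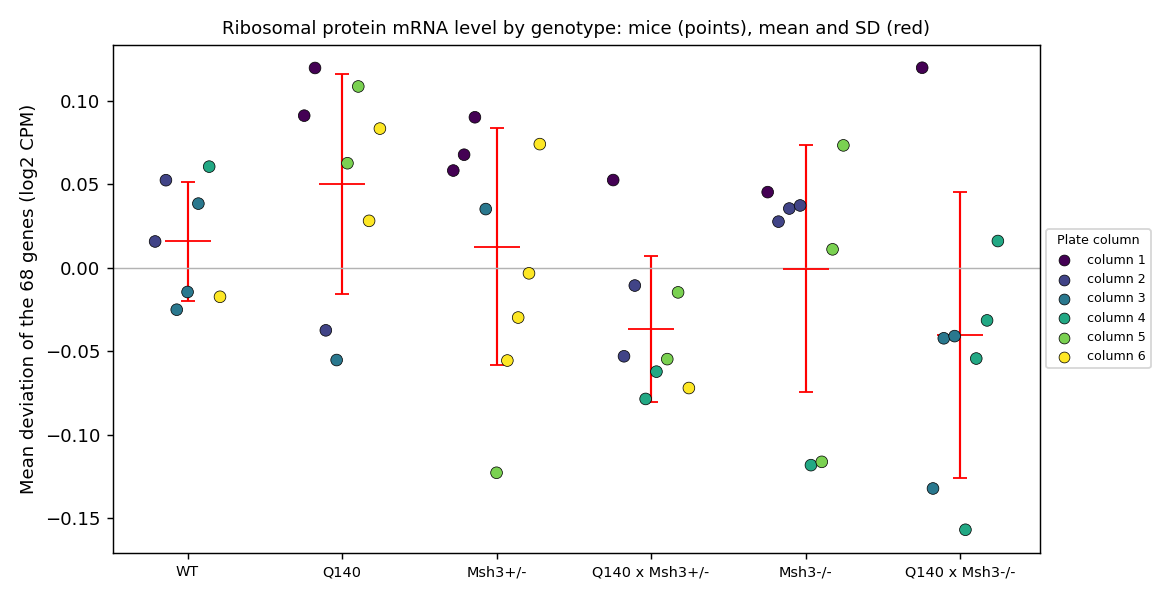
Mean deviation of the 68 ribosomal protein genes from their average over all mice (y axis, log2 CPM) by genotype; each point is a mouse, coloured by plate column, and red bars are the group mean and SD. Q140 averages 0.05 and both crosses -0.04, and the mice of column 1 are above 0 in every group that has one.

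Single mice also mattered. The count of members higher in Q140 than in WT at an unadjusted p under 0.05 was 9 with all mice, 17 without Q140 female 1, 16 without Q140 female 3, 5 without Q140 female 4, male 2 or male 3, and 4 without WT male 3. The count lower in Q140 x Msh3-/- than in Q140 was 30 with all mice, 15 without Q140 x Msh3-/- female 4 and 19 without Q140 male 3. WT male 3 is among the 3 mice with raised choroid plexus RNA, and without these 3 the first count was 4. Between Q140 x Msh3+/- and Q140 the count stayed between 20 and 32.

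Fold changes and covariation with the members also differed by gene length. The genes tested outside the 68 members were put into classes by length. Their log2 fold changes in Q140 x Msh3+/- against Q140 had a median of -0.03 for the 1318 genes with under 600 bases and of 0.01 for the 5938 with over 5000 bases, and in Q140 against WT these medians were 0.03 and 0.00. From mouse to mouse the mean of the shortest class had r = 0.46 with the member mean and that of the longest class r = -0.53, after removal of genotype and sex means. Of the 68 members, 44 are under 2000 bases long, with a median of 1694 bases. In the class of 1000 to 2000 bases r was only -0.05. Its medians were -0.02 in Q140 x Msh3+/- against Q140 and 0.01 in Q140 against WT. All these lengths are those behind the deposited FPKM. The part of plate position and transcript length in the genotype shifts was not tested.

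Each part of the ribosome had most of its genes on the same side. In Q140 against WT, 25 of the 27 small-subunit genes were above 0 (median 0.07), as were 26 of the 38 large-subunit genes (0.04) and 2 of the 3 stalk genes (0.05). Against Q140, in the Q140 x Msh3+/- mice 26 of 27, 34 of 38 and 3 of 3 were below 0, with medians of -0.11, -0.08 and -0.08. For Q140 x Msh3-/- against Q140 the same numbers were 26, 32 and 3, with medians of -0.10, -0.08 and -0.13. Differences between subunits were not tested.

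Most copies of these genes were on the same side. Of the 106 pseudogene rows with at least 1 CPM, 99 were above 0 in Q140 against WT (median 0.08), and 101 and 97 were below 0 in Q140 x Msh3+/- and Q140 x Msh3-/- against Q140 (medians -0.12 and -0.10). Adding the copies to their parents gave 12 members higher in Q140 than in WT at an unadjusted p under 0.05, and 36 and 31 lower in the crosses than in Q140, with 0 called. For the 13 members with at least 90% unique windows, whose reads are least likely to be exchanged with a copy, 11 and 12 were below 0 in the 2 crosses against Q140, with medians of -0.07 and -0.09.

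Between males and females 2 members passed the adjusted threshold, both higher in males, beside 5.56% of all genes in either direction. Rps4l, a processed copy of the X-linked Rps4x on chromosome 6 whose coding part is 80.1% identical to it, ranged from 2.79 to 7.29 CPM in 24 females (median 4.99) and from 4.33 to 11.98 CPM in 24 males (median 6.33). The sexes overlapped, and the log2 fold change was 0.40 (SE 0.10, adjusted p = 0.0075 by edgeR). Rps4l was called in 63 of the 63 fits that gave a test for sex. The parent of Rps4l, Rps4x, was not among the 8 members at an unadjusted p under 0.05 for sex.

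Within genotype and sex, the ribosomal protein genes varied together from mouse to mouse. Over 48 mice and 2278 pairs of members, the Pearson correlation of log2 CPM, after removal of genotype and sex means, had a median of 0.31 (quartiles 0.11 and 0.50), and 84.8% of pairs were positive. Over all pairs of genes tested the median was -0.00 (quartiles -0.14 and 0.14). All these values come from the same libraries and share their depth and scaling. Small-subunit pairs had a median of 0.44, large-subunit pairs 0.25 and mixed pairs 0.32, and the means of the large and the small subunit had r = 0.83. Among the 13 members with at least 90% unique windows the median was 0.26. A single component held 38.3% of the variance of the 68 genes.

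The strength of this link differed widely between members. With the mean of the other members, Rpl32 had r = 0.87 and Rpl26, which sits by the tunnel exit, 0.84, and 44 of the 68 were at 0.5 or above. Rpl3 had r = 0.66 and ranked 23rd. At the other end were Rpl22l1 (-0.22), the paralogue that can stand in for Rpl22, Rpl5 (-0.14), which carries the 5S RNA into the large subunit, and Rps15a (-0.10), and 8 members were under 0.2. The rank correlation between a member's mean CPM and this r was 0.58, so sparse genes tended to have low values. Not all of the low end was sparse: Rpl22l1 averaged 5.46 CPM, but Rpl5 16.2 and Rps15a 71.8 CPM.

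**Figure D4:**
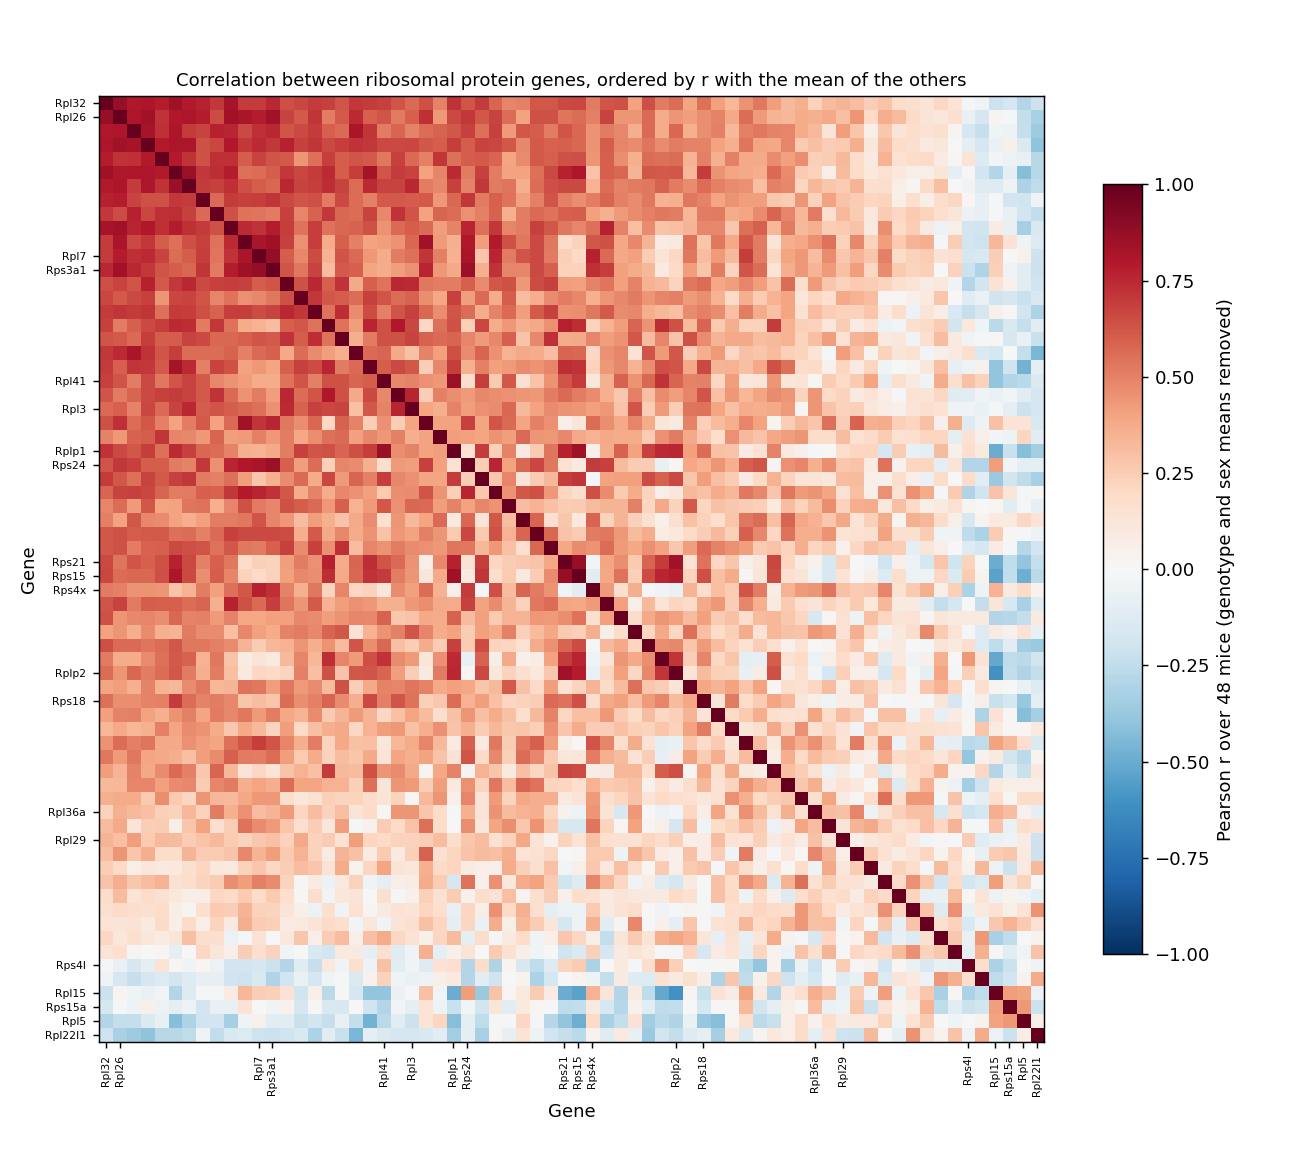
Pearson correlation (colour scale from -1 to 1) between the 68 ribosomal protein genes over 48 mice, on log2 CPM with genotype and sex means removed; rows and columns are in the order of each gene's r with the mean of the others, from Rpl32 (0.87) to Rpl22l1 (-0.22), and only some of the genes discussed are labelled. The upper left is red throughout, and the last rows, among them Rpl15, Rpl5 and Rps15a, are pale or blue.

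Inside the block there were tighter sets, picked out here after the values were seen. Rpl7 and Rps3a1 had r = 0.88, and Rps3a1 and Rps24 0.86. Rps15 and Rps21 had 0.87, and Rplp1 and Rpl41 0.86. The lowest pairs all joined Rpl15 or Rpl5 to another member: Rpl15 had r = -0.60 with Rplp2, -0.53 with Rps15 and -0.51 with Rpl36, and Rpl5 had -0.49 with Rps15. By the length behind the deposited FPKM, Rpl15 (2397 bases) and Rpl5 (3920 bases) are longer than Rps15 (630) and Rpl36 (404). Rplp2 (2072 bases) is close to Rpl15 by the same length.

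Paralogues and named copies had r from -0.32 to 0.63 over 7 pairs. Rps3a1 had r = 0.63 with Rps3a2 and 0.56 with Rps3a3, and Rpl6 had 0.47 with Rpl6l. Rpl22 averaged 17.0 FPKM and Rpl22l1 2.75, with r = 0.15. Rpl7 averaged 26.1 FPKM and Rpl7l1, a paralogue linked to ribosome assembly, 9.84, with r = 0.34. Rpl36al averaged 11.5 FPKM and Rpl36a 3.21, with r = 0.39. Rps4x averaged 22.5 FPKM and Rps4l 5.99, with r = -0.32. Rps27l (4.13 FPKM) and Rps27 (1.27) lay below the threshold, as did Rpl3l (0.18 FPKM), the muscle paralogue of Rpl3, Rpl39l (0.03) and Rpl10l, which was listed at 0.

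The highest r of Rpl3 with another member was with Rps19 (0.77), Rplp0, the base of the stalk (0.76), and Rpsa, the laminin receptor homologue (0.75), 3 members singled out after their values were seen. Outside the members, the genes nearest to Rpl3 were Eef2, the translocation factor (0.80), the pseudogene rows Rps19-ps6 (0.77), Rpsa-ps10 (0.74) and Rps16-ps2 (0.72), and Agpat1, a phospholipid acyltransferase (0.71). Nearest to the mean of the 68 were Rack1, a scaffold protein of the small subunit (0.85), Gm11478, a copy of Rpl13a (0.85), Eef2 (0.84), Rps16-ps2 (0.82) and Rps10-ps2 (0.81). These are the highest of many values and were picked for that.

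The deviation of Rpl3 from its group was compared with 3 library measures, by permutation over all 48 mice without regard to plate column. Over 48 mice it had r = 0.30 with the log2 library total (two-sided permutation p = 0.0397, adjusted over the 3 library measures 0.0596; Spearman rho 0.34, p = 0.0192, adjusted 0.0288), and r = 0.31 without the 2 libraries farthest from the median. Within the 6 plate columns r ranged from -0.16 to 0.62 and was positive in 3. With the mean of the mitochondrial genome transcripts r was 0.38 (permutation p = 0.00728, adjusted 0.0218; rho 0.37, p = 0.0100, adjusted 0.0288), falling to 0.24 without the 2 farthest mice, and ranged from -0.57 to 0.81 within columns. With the share of counts in the 50 most abundant genes r was 0.08 (permutation p = 0.610; rho 0.04, p = 0.792). For the mean of the 68 genes the same 3 values of r were 0.39, 0.62 and 0.29, given without a test.

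Other genes of the translation machinery moved with the members to different degrees. Over mice, the member mean had r = 0.90 with the mean of 24 other TOP mRNAs, 0.77 with 9 elongation factors and 0.47 with 35 initiation factors. These lists overlap: Eef1a1 and Eef2 are also among the TOP mRNAs, as are the initiation factors Eif3f and Eif2s3x. With the mean of the 106 pseudogene rows it had r = 0.90. Those rows were chosen for sharing sequence with genes of these names, so their counts can hold reads of the members. The member mean had 0.16 with 38 ribosome biogenesis genes, 0.07 with 24 genes of the integrated stress response and 0.00 with 22 genes of the mTOR pathway. Energy and protein turnover genes lay between: 0.62 for 13 mitochondrial genome transcripts, 0.53 for 77 nuclear subunits of oxidative phosphorylation, 0.52 for 77 mitochondrial ribosomal proteins and 0.44 for 39 proteasome subunits. Among cell type markers the values were 0.45 for astrocytes, 0.43 for endothelium and mural cells, 0.34 for microglia, 0.27 for oligodendrocytes, 0.09 for neurons, 0.02 for blood and -0.31 for choroid plexus.

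Across genotypes, 0 genes of these lists were called in either cross against Q140. In Q140 x Msh3+/- and Q140 x Msh3-/- against Q140, in this order, 7 and 8 of the 9 elongation factors were below 0. Eef1a1, which brings aminoacyl-tRNA to the ribosome, had -0.13 (SE 0.04) and -0.10 (SE 0.04), and Eef2 had -0.11 (SE 0.04) in the second. Of the 24 other TOP mRNAs 20 and 17 were below 0, with Pabpc1, the poly(A)-binding protein, at -0.12 (SE 0.04) in the first and Tpt1, a classical TOP mRNA, at -0.15 (SE 0.06) in the second. Of the 35 initiation factors 24 and 17 were below 0, and of the 38 biogenesis genes 18 and 18, which is an even split.

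Most of the regulatory and energy lists also leaned below 0, to different degrees. Of all genes tested, 51.2% and 53.4% were below 0 in the same comparisons. Of 22 mTOR pathway genes 16 and 15 were below 0, and Eif4ebp1, the translation repressor that mTOR phosphorylates, had -0.34 (SE 0.12) in the second cross, where Rps6kb1, the S6 kinase, had 0.09 (SE 0.03). Of 24 stress response genes 20 and 16 were below 0, with Atf5, a stress transcription factor, at -0.26 (SE 0.10) and -0.30 (SE 0.10) and Phgdh, of serine synthesis, at -0.16 (SE 0.04) in the second. Oxidative phosphorylation subunits were below 0 in 56 and 69 of 77. Of these, 2 and 18 had an unadjusted p under 0.05, beside 2.82% and 4.55% of all genes lower. Mitochondrial genome transcripts were below 0 in 13 and 8 of 13, mitochondrial ribosomal proteins in 37 and 43 of 77, and proteasome subunits in 32 and 25 of 39.

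Of the cell type markers, oligodendrocyte genes had 8 and 7 of 8 below 0 in the crosses against Q140 (median -0.11 in each), though 6 of 8 were also below 0 in Q140 against WT, and their summed levels were 1305 to 2573 CPM in Q140, 1429 to 2379 in Q140 x Msh3+/- and 1534 to 1948 in Q140 x Msh3-/- mice. Neuronal markers were below 0 in 6 and 3 of 12, astrocyte markers in 3 and 4 of 8, microglial markers in 5 and 5 of 8 (2 at an unadjusted p under 0.05 in the second cross, and 7 of 8 above 0 in Q140 against WT), endothelial and mural markers in 2 and 4 of 8, choroid plexus markers in 5 and 4 of 7 and blood genes in 5 and 0 of 5. The part of cell composition in the ribosomal protein values was not tested.

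Rpl29 was the most variable of the 68 genes and fell into 3 separate ranges that cut across genotype. Its coefficient of variation within groups was 40.5%, beside 29.4% for Rps4l, 11.7% for Rpl36a and a median of 7.20% (10.1% over all genes). Rpl29 encodes a small basic large-subunit protein and lies at chr9:106429454-106431568 (GRCm38). In 3 mice it measured 1.05 to 1.36 CPM, in 17 mice 17.1 to 23.2 CPM, and in 28 mice 29.7 to 45.2 CPM, with no mouse between these ranges. The 3 low mice were 2 Msh3-/- mice and 1 Q140 x Msh3-/- mouse. The middle and high ranges held 1 and 6 WT mice, 5 and 3 Q140 mice, 3 and 6 Msh3+/- mice, 5 and 3 Q140 x Msh3+/- mice, 1 and 5 Msh3-/- mice, and 2 and 5 Q140 x Msh3-/- mice. No genotype comparison of Rpl29 passed, with log2 fold changes from -0.41 to 0.29 and standard errors of 0.38 to 0.56.

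Its copies changed with it, in both directions. Gm8210 (chr1:43189156-43189638), an intronless copy, measured 7.59 to 9.89 CPM in the 3 low mice, 4.11 to 5.98 CPM in the 17 of the middle range and 0.09 to 0.34 CPM in the 28 high mice. Gm10709 (chr9:7751725-7752204) went the other way, at 0.02 to 0.05, 2.81 to 4.19 and 4.96 to 7.62 CPM, and Gm6344 (chr13:55085777-55086259) at 0.03 to 0.05, 0.42 to 0.99 and 0.64 to 1.71 CPM. The ranges of Gm8210 and Gm10709 did not overlap, and those of 2 further copies, Gm12447 and Gm13841, did. With the copies added, the lowest mouse had 10.5 CPM and the highest 56.4.

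**Figure D5:**
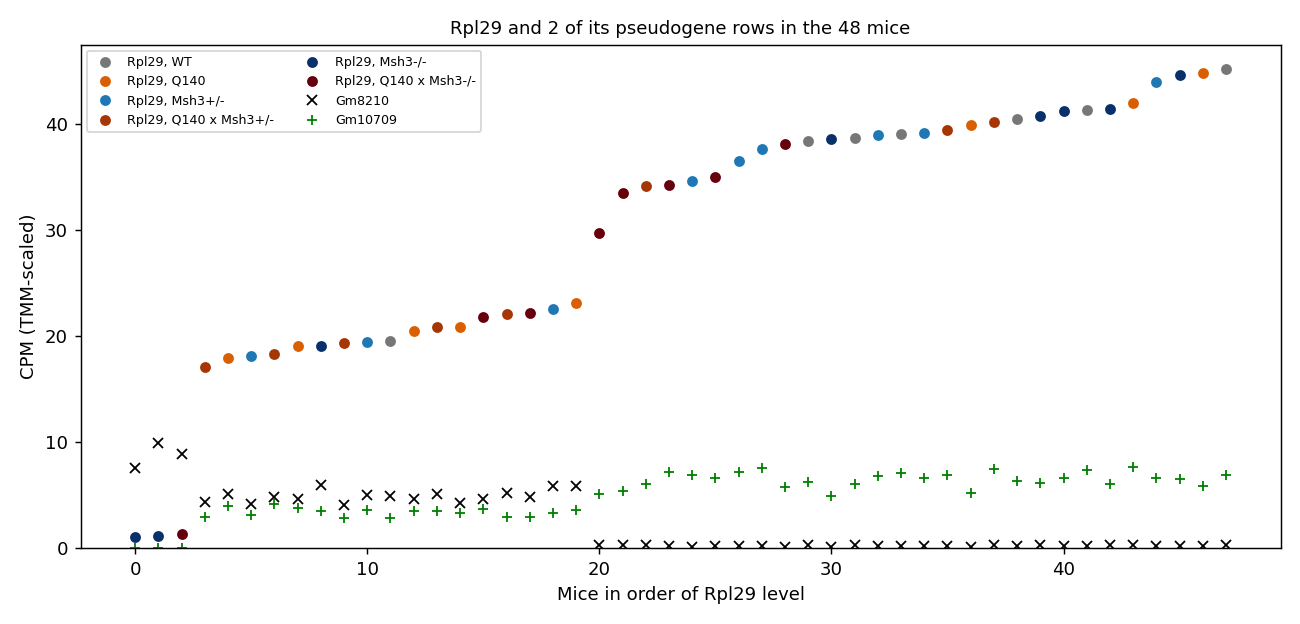
Rpl29 (filled points, coloured by genotype) and its copies Gm8210 (crosses) and Gm10709 (plus signs) in CPM for each of the 48 mice, which are ordered along the x axis by Rpl29. Rpl29 steps from about 1 CPM in 3 mice to 17.1 to 23.2 CPM in 17 and 29.7 to 45.2 CPM in 28, and Gm8210 steps down where Rpl29 and Gm10709 step up.

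The coding sequences of Rpl29 and Gm8210 are printed around the bases where the reference tells them apart, as these are the coding positions at which a read could be told apart. The copy Gm8210 matched 480 of 483 coding bases of Rpl29, with the differences C72A, C300T and T423C (Rpl29 base first, counted from 1 at the A of the start codon). The differing base is in capitals, and sequences are from the GENCODE M21 transcripts.
Rpl29, bases 52 to 92: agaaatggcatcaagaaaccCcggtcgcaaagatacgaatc
Gm8210, bases 52 to 92: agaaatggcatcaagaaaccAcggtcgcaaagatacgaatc
Rpl29, bases 280 to 320: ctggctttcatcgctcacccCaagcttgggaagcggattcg
Gm8210, bases 280 to 320: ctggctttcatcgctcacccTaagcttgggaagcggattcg
Rpl29, bases 403 to 443: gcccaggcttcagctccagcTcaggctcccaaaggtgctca
Gm8210, bases 403 to 443: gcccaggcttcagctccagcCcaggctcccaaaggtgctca

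Gm6344 carries C300T and T423C as well, with G454A, and Gm10709 carries both with G205A and G457A. Over the whole transcripts of Rpl29, coding part included, 71.8% of the 75-base windows were unique to it. Whether the mice differ in sequence at these positions was not tested, since reads were not used here.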

How the data were processed

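Cortical RNA from 48 mice was purified with Qiagen RNeasy columns and sequenced from Illumina TruSeq stranded libraries, per the labels' protocols. Per the submitters' processing notes, STAR 2.7.5c, SAMtools 1.10 and HTSeq 0.12.3 were used with GRCm38; the annotation release, read length and strand setting are not given in the sources used here. The authors deposited raw counts per gene and FPKM values. Counts (35946572 to 64479357 per library) were tested with edgeR 4.0.16 (quasi-likelihood, TMM, genotype and sex) on 20010 genes that passed filterByExpr, with Benjamini-Hochberg adjustment over all of them; CPM are TMM-scaled except where members were chosen, which used plain totals. The SE beside each edgeR log2 fold change was derived from the test, as its absolute value divided by the square root of F. It is therefore not a separate estimate of error. The deposited FPKM served to compare levels between genes and, with the counts, to derive gene lengths. As log2(FPKM + 0.1) and log2(FPKM + 1) in limma 3.58.1 they were alternatives, as was DESeq2 1.42.0. The fitting code was checked on simulated counts for calling large planted changes. Genes were drawn independently there, and every planted change exceeded the Rpl3 shifts and member medians given here. The check therefore says nothing about shifts of that size. Sequence sharing used 75-base windows of GENCODE M21 transcripts. Named genes are Rpl3, members called in any comparison, the 2 with the smallest p in each, those highest or lowest in level, correlation or variation, paralogues, the genes nearest the threshold, those most correlated with Rpl3 or the member mean, and up to 2 genes of each list by p. Results for some members and list genes are not reported here. The members and all gene lists were chosen with earlier results of these data known. Correlations across mice use log2 CPM with genotype and sex means removed. Intervals and p-values cover the spread between mice.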

Additional observations from a re-analysis of the deposited data

Results flagged for a closer look

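Single mice lay far from the rest of their group in 4 of 102 combinations of a group and one of 17 quantities, by the gap to the nearest mouse relative to the range of the group; chance flags about 1 in 20. In Q140 x Msh3+/- female 1, Rpl3-ps1 was at 71.56 CPM, beside 63.18 to 66.39 CPM in the other mice of that group. In the same mouse Rps28 was at 6.211 CPM, beside 5.187 to 5.669 CPM. Rpl29 was at 19.57 CPM in WT male 4, beside 38.35 to 45.21 CPM in the other WT mice, and at 1.356 CPM in Q140 x Msh3-/- male 3, beside 21.79 to 38.11 CPM.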

How the results depend on the processing

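The fits were repeated under 17 other settings and with each of the 48 mice left out. How many of all genes were called in these fits is not reported here. In Q140 x Msh3+/- against Q140, 1 member, Rpl3, was called with upper-quartile scaling (log2 fold change -0.217, adjusted p = 0.0459), a stricter filter of 1 CPM in 7 mice (-0.217, 0.0381), DESeq2 (-0.216, 0.0118), limma on log2(FPKM + 0.1) (-0.214, 0.0269), limma on log2(FPKM + 1) (-0.199, 0.0312) and plate column in the fit (-0.213, 0.0470). Its adjusted p ranged from 0.0118 to 0.450 over the 17 settings, highest where the fit held only the groups compared, and from 0.0224 to 0.326 over fits without 1 mouse, in which the log2 fold change lay between -0.237 and -0.198 and 0 to 1 members were called. Leaving out 1 mouse gave 0 to 1 called in Q140 x Msh3-/- against Q140. In the other genotype comparisons edgeR, DESeq2 and all remaining settings called 0.

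Between the sexes 1 member, Rps4l, was called with upper-quartile scaling, without a filter, with quality weights, with plate column, with a block for related mouse names and without 3 mice that stood apart in a principal component, and 1 to 2 without 1 mouse. Rps4l kept an adjusted p of 0.00393 to 0.0312 in 14 settings.

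Members higher in Q140 than in WT at an unadjusted p under 0.05 numbered 1 with plate column, 4 without the choroid plexus mice and 4 to 17 without 1 mouse. Members lower in Q140 x Msh3-/- than in Q140 numbered 11 with plate column and 15 to 39 without 1 mouse. The median log2 fold change of the members kept its sign in all 17 settings in each of these comparisons. The settings counting members at an unadjusted p, those without the choroid plexus mice and those on summed copies were chosen after seeing the data. The cause of these changes was not tested.

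Replicate numbers did not pair the mice: of 115 same-numbered pairs of one sex, 16 had a correlation over 0.1, and 1 of 48 mice correlated best with a mouse of its own number. With the replicate number as a block, 0 members were called in every genotype comparison, Rpl3 had -0.216 with an adjusted p of 0.110, and the unadjusted counts were 10, 30 and 30.

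The part of the spread between mice and of reads shared with copies in the precision was not tested.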

Other observations

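Genes that lie near Rpl29 on chromosome 9 had levels that differed between its 3 ranges as well. These genes were chosen after their values were seen, and the ranges are defined by Rpl29, so the values are a description. In the 3 mice with the lowest Rpl29, Bfsp2, a lens filament gene, measured 0.0258 to 0.0935 CPM, in the 17 mice of the middle range 0.554 to 1.19 CPM and in the 28 mice of the high range 1.18 to 3.17 CPM. Poc1a, a centriole gene, measured 7.26 to 7.59, 9.66 to 11.1 and 10.99 to 15.21 CPM, and Ppm1m, a phosphatase gene, 6.89 to 8.49, 10.4 to 13.8 and 12.6 to 18.7 CPM. The collagen gene Col6a5 was lower in the high range than in the other mice, at 1.40 to 2.07, 0.865 to 2.21 and 0.227 to 0.826 CPM. On chromosome 1, far from Gm8210, the row Tma7-ps measured 17.9 to 18.4, 10.7 to 16.1 and 8.05 to 13.6 CPM.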
